A study of Danio rerio with 6 samples.

Results

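In neural crest cells from the zebrafish trunk, 98 of the 52216 Ensembl transcripts listed were abundant in all 3 libraries made at 36 hours post fertilization (hpf) and not in all 3 made at 72 hpf. Abundant means at least 500 CPM, where CPM is the transcript's estimated count divided by the library's total of estimated counts and multiplied by 1000000. A member reached this level in every 36 hpf library and was under it in at least 1 of the 72 hpf libraries. The 13 listed transcripts in the run of identifier numbers set as mitochondrial were left out. All 98 passed the filter on low counts that left 17711 transcripts for testing. The rule used the levels at both stages, so every difference between the stages given for these transcripts is a description, and none is tested here.

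The neural crest is an embryonic population that leaves the dorsal neural tube, migrates through the trunk and forms pigment cells along with the neurons and glia of the peripheral nervous system. The transcription factor foxd3 acts early in crest specification, and sox10, another transcription factor, is needed for the non-skeletal lineages and is kept in pigment progenitors and glia. In the zebrafish trunk, crest cells migrate early in development, and pigment cells, sensory neurons and glia differentiate from them in the days that follow.

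Cells came from embryos of 1 genotype, Gt(foxd3:mCherry);Tg(sox10:mEGFP), which joins an mCherry gene trap at foxd3 to a membrane EGFP driven by sox10, and double-positive cells of the trunk were collected at both stages. Each stage had 3 samples of 1750 ± 750 cells, and the labels name no treatment and no difference between the groups other than the stage. The number of embryos behind a sample, their strain and whether replicates came from separate clutches are not stated in the labels, so any spread between replicates may be technical. These are bulk samples, in which fewer cells of a type and less RNA per cell cannot be told apart. The tables used here pair no transcript with a gene, so transcripts are described by identifier and length, and the levels of foxd3, sox10 and other marker genes were not analysed here. The libraries held 10520927, 18322110 and 12933945 estimated counts at 36 hpf and 8502028, 7123251 and 11191844 at 72 hpf, in replicates 1 to 3. At 72 hpf the number of transcripts with at least 10 counts was 11511 and 10548 in replicates 1 and 2 and 18793 in replicate 3, which stood apart.

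As a set, the 98 transcripts took up much of the 36 hpf libraries and little of the 72 hpf ones. Their summed share of the counts was 13.4, 15.8 and 15.1% in the 36 hpf libraries and 1.91, 2.92 and 1.98% in the 72 hpf libraries. The stage means were 14.7% ± 1.23 and 2.27% ± 0.563 (SD, n = 3). The median member stood at 11.5% of its 36 hpf mean at 72 hpf, with quartiles at 4.30 and 33.9%, while the median over all 17711 tested transcripts was 99.9%. The rule favours members that are lower at 72 hpf but does not require a lower mean. The sizes given here come from the values that chose the members, so they are a description. The tested transcripts are mostly at much lower levels, with a median of 2.02 to 14.8 CPM per library. A set made the other way round held 69 transcripts at 500 CPM or more throughout 72 hpf but not throughout 36 hpf, and 45 transcripts met the minimum in all 6 libraries. The mean summed share of the 69 was 2.16% at 36 hpf and 9.31% at 72 hpf. That of the 45 was also lower at 72 hpf, at 7.41% against 13.7%, though their median transcript stood at 111% of its 36 hpf mean.

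**Figure D1:**
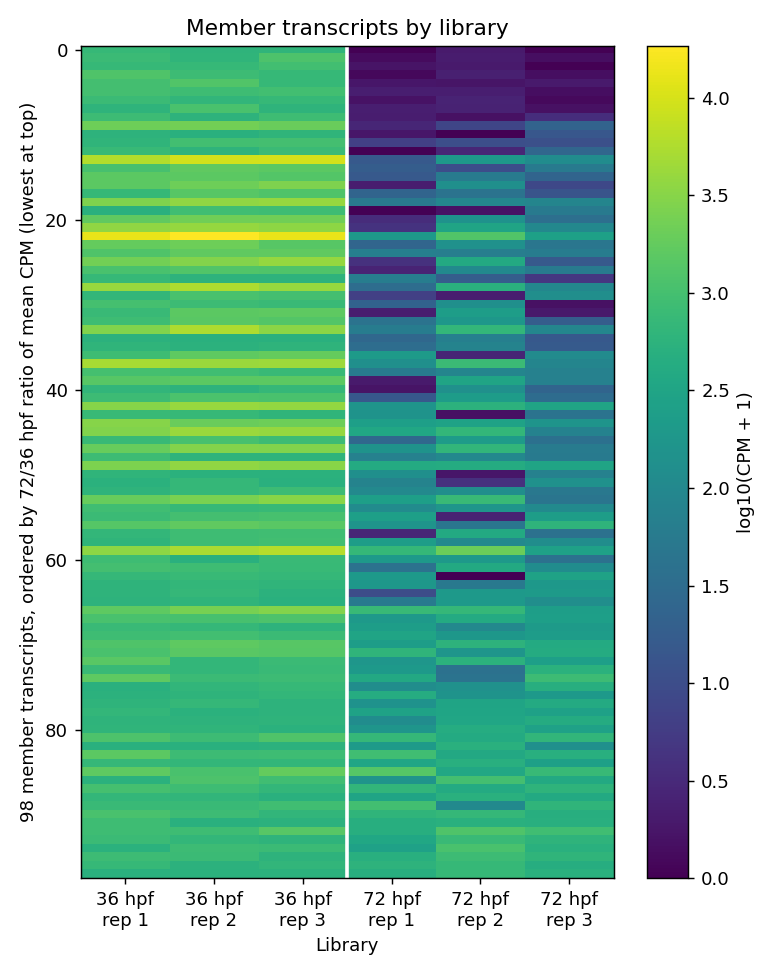
Level of each of the 98 transcripts, as log10(CPM + 1) by colour, in the 3 libraries at 36 hpf and the 3 at 72 hpf; rows are ordered by the ratio of the stage means, lowest at the top. The 36 hpf columns look alike, while single libraries at 72 hpf are dark where the others are not.

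The word "only" in a name such as "abundant only at 36 hpf" held for some members more than for others. At 72 hpf 66 of the 98 were under 500 CPM in all 3 libraries, 19 reached it in 1 library and 13 in 2. In 12 members the 72 hpf mean was under 1% of the 36 hpf mean, in 34 it was from 1 to 10%, in another 34 from 10 to 50%, in 17 from 50 to 100%, and in 1 it was above the 36 hpf mean. In 86 members every 72 hpf library lay below every 36 hpf library, as it did in 15% of all tested transcripts. In the stage comparison over all tested transcripts, edgeR's quasi-likelihood test called 18 of the 98 lower at 72 hpf, at a Benjamini-Hochberg adjusted p under 0.05, where it called 0.198% of all tested transcripts lower and 0.407% in either direction. DESeq2 called 40 of the 98 lower and 6.57% of all it gave an adjusted p for. The limma-voom fit called 26 of the 98 and 4.34% of all. Of the 18 called by edgeR, DESeq2 called all 18 and limma-voom 7. Because the rule used the same contrast, nothing is read from these counts. The number of members called moved with the libraries. It was 2 without any 1 of replicates 1, 2 and 3 at 36 hpf. Without replicates 1, 2 and 3 at 72 hpf it was 4, 31 and 0. Over all tested transcripts, 19832 to 21405 per fit, those called lower numbered 2 without each 36 hpf library. They numbered 7, 63 and 0 without replicates 1, 2 and 3 at 72 hpf. The 18 called by edgeR with all 6 libraries comprised 9 of the 12 members under 1% and 8 of the 34 from 1 to 10%. The rest was 1 of the 34 from 10 to 50%, and none of the 18 members above that. These tiers rest on the same stage contrast as the test, so nothing is read from this split either. The share of all tested transcripts called in such tiers was not computed.

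**Figure D2:**
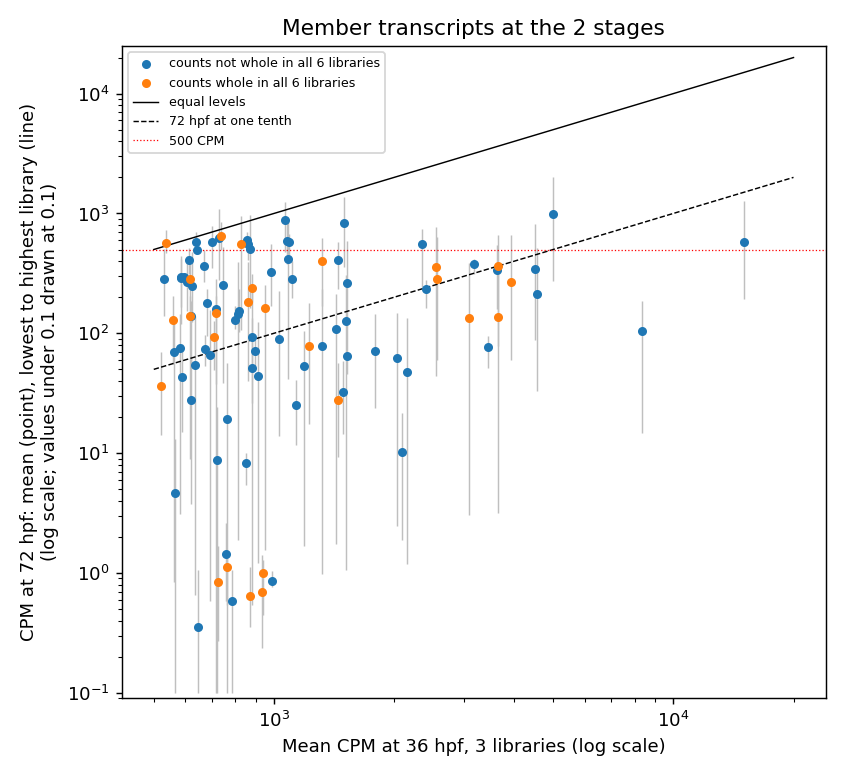
Mean CPM at 36 hpf against CPM at 72 hpf for the 98 transcripts, both on log scales; points are 72 hpf means of 3 libraries, grey lines run from the lowest to the highest 72 hpf library, and orange marks the 26 transcripts with whole counts in all 6 libraries. Of the 12 transcripts under 1% of their 36 hpf level, 11 lie under 1000 CPM at 36 hpf.

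The members of highest CPM at 36 hpf kept a measurable level at 72 hpf. ENSDART00000167019.2 (2374 bases) had the second highest mean CPM of all non-mitochondrial transcripts at 36 hpf, with 13442, 18446 and 13181 CPM in replicates 1 to 3, and 195, 1261 and 270 CPM at 72 hpf. Its means were 15023 ± 2967 and 575 ± 595 CPM (SD, n = 3), a 26.1-fold difference. The stages did not overlap, and replicate 2 at 72 hpf was several times above the other libraries of its stage.

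ENSDART00000165670.1 (4640 bases) had 6023, 9310 and 9670 CPM at 36 hpf and 14.8, 184 and 117 CPM at 72 hpf. The difference of its means was 79.2-fold, the largest among the 10 members of highest mean CPM. ENSDART00000162404.1 (1788 bases) had 2765, 3617 and 3934 CPM at 36 hpf and 51.7, 95.1 and 85.4 CPM at 72 hpf. Here the 72 hpf libraries were close together, at 77.4 ± 22.7 CPM (SD, n = 3), and the means differed 44.4-fold. ENSDART00000018261.7 (1293 bases) was steady at 36 hpf, with 3552, 3951 and 3413 CPM, and scattered at 72 hpf, with 3.18, 311 and 98 CPM.

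Replicate 2 was the highest 72 hpf library for each of these 10 members, and in another 5 of them the means differed by up to 21.3-fold. ENSDART00000147009.1 (822 bases) had 4078, 5477 and 4128 CPM at 36 hpf and 32.9, 514 and 94.9 CPM at 72 hpf. ENSDART00000159326.1 (893 bases) had 2923, 5517 and 3329 CPM and then 60.1, 658 and 89.8 CPM. ENSDART00000066975.5 (3149 bases) had 5032, 4159 and 4297 CPM and then 134, 815 and 87.2 CPM. In these 3, replicate 2 at 72 hpf was 5.41, 7.33 and 6.09 times the next highest library of that stage.

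ENSDART00000103270.2 (2023 bases) and ENSDART00000109535.3 (4089 bases) completed the 5, with 72 hpf means of 363 ± 295 and 339 ± 197 CPM (SD, n = 3) against 3640 ± 675 and 3611 ± 462 CPM at 36 hpf. The member with the third highest CPM, ENSDART00000139096.1 (2261 bases), stood out by what remained. It had 3529, 5203 and 6246 CPM at 36 hpf and 685, 2008 and 274 CPM at 72 hpf, a 5.05-fold difference of means.

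CPM values favour long transcripts, so levels were also ranked by TPM, the deposited abundance measure that takes the effective length into account. On that scale the member of highest level at 36 hpf was the 822-base ENSDART00000147009.1, at 15808 ± 1844 TPM against 793 ± 937 TPM at 72 hpf (SD, n = 3). ENSDART00000167019.2 came next at 12226 ± 2447 TPM and the 893-base ENSDART00000159326.1 after it at 11788 ± 3592 TPM (SD, n = 3). The ranges over libraries of these 3 overlapped. ENSDART00000147009.1 was above ENSDART00000167019.2 in each of the 3 libraries, while the order of ENSDART00000167019.2 and ENSDART00000159326.1 changed between libraries. ENSDART00000018261.7 followed at 6348 ± 356 TPM (SD, n = 3), below every library of the first 3.

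Of the 10 highest by CPM, 8 were also among the 10 highest by TPM. The pair that entered by TPM, named after its values were seen, was ENSDART00000043658.6 (1662 bases), at 3887 ± 1177 TPM against 179 ± 288 TPM at 72 hpf, and ENSDART00000171396.1 (926 bases), at 3258 ± 1047 TPM against 78.6 ± 41.4 TPM (SD, n = 3). The longest member, ENSDART00000088484.6, with 20569 bases, ranked 50th by CPM and last by TPM. Using 500 TPM in place of 500 CPM in the rule gave 98 transcripts as well, of which 62 were members.

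**Figure D3:**
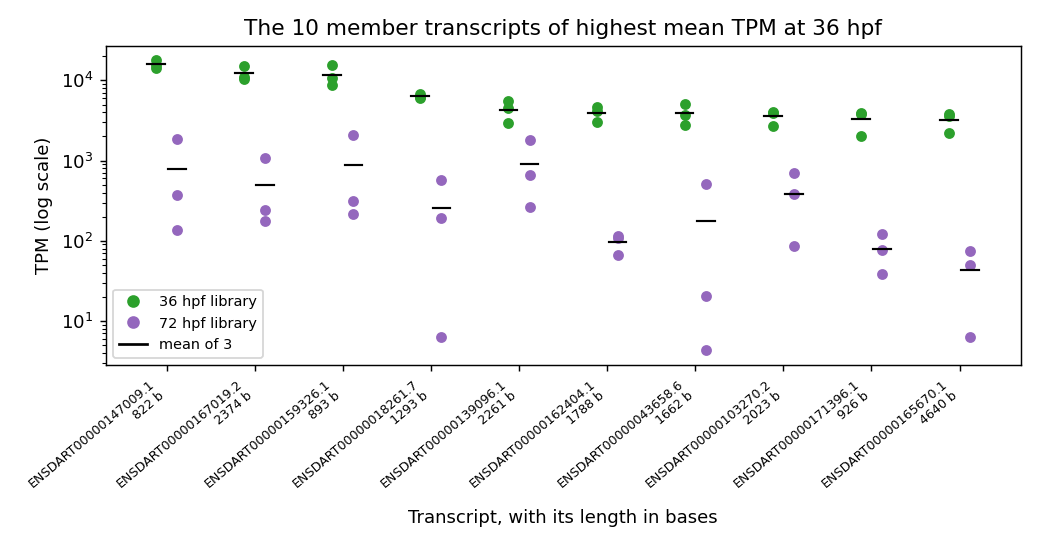
TPM on a log scale in each of the 6 libraries for the 10 member transcripts of highest mean TPM at 36 hpf; points are libraries, green for 36 hpf and purple for 72 hpf, and bars are means of 3. No transcript shown has a 72 hpf library above its lowest 36 hpf library, and the spread is wider at 72 hpf for most.

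At the other end, 9 members were under 5 CPM in all 3 libraries at 72 hpf. None of these 9 exceeded 1279 CPM in any library at 36 hpf, so they belong to the middle and lower part of the set. The 8 largest differences were all among them. ENSDART00000081663.5 (1224 bases) had 732, 592 and 612 CPM at 36 hpf and 0, 1.07 and 0 CPM at 72 hpf. At 72 hpf this amounted to 7.59 estimated counts in 1 library. At that stage 3 counts correspond to 0.353, 0.421 and 0.268 CPM in replicates 1 to 3. A zero there does not exclude a level up to about that. The counts of this transcript were not whole, and whether its exact zeros come from how shared reads were divided was not tested.

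ENSDART00000134921.2 (933 bases) had 978, 1279 and 708 CPM at 36 hpf and 0.782, 0.756 and 1.04 CPM at 72 hpf. Its 72 hpf levels were close together but rest on few estimated counts, 6.65, 5.39 and 11.6 in replicates 1 to 3. These counts were not whole. Its means were 988 ± 286 and 0.858 ± 0.155 CPM (SD, n = 3), 1152-fold apart. ENSDART00000011943.6 (2314 bases) was even at 36 hpf, with 963, 889 and 959 CPM, and had 1.29, 1.26 and 0.447 CPM at 72 hpf. Its counts were whole in all 6 libraries, with 25 counts in all at 72 hpf, and its means were 936-fold apart.

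Another 4 of the 8 had whole counts in every library. ENSDART00000077553.6 (5683 bases) had 869 ± 282 and 0.641 ± 0.420 CPM, and ENSDART00000078594.3 (1969 bases) had 932 ± 264 and 0.695 ± 0.623 CPM (SD, n = 3). ENSDART00000154259.1 (2555 bases) had 723 ± 83.5 and 0.847 ± 0.743 CPM, and ENSDART00000029695.4 (1767 bases) had 761 ± 299 and 1.12 ± 0.525 CPM (SD, n = 3). Their pooled 72 hpf counts were 16, 17, 20 and 28. The remaining one, ENSDART00000162471.1 (1790 bases), whose counts were not whole, had 784 ± 129 and 0.579 ± 0.534 CPM (SD, n = 3). Replicate 2 was the highest 72 hpf library for all of the 8 except ENSDART00000134921.2 and ENSDART00000011943.6. These ranks rest on few counts, and nothing is read from them. In replicates 1 to 3 at 72 hpf, ENSDART00000077553.6 had 3, 8 and 5 counts. ENSDART00000029695.4 had 11, 11 and 6, and replicate 2 ranked first there because its library total was lower. Over the 12 members under 1%, the highest 72 hpf library was replicate 1 in 1 member, replicate 2 in 6 and replicate 3 in 5.

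Among the 6 members with the smallest difference, the stages overlapped in every case. ENSDART00000016214.8 (3780 bases) had 517, 536 and 558 CPM at 36 hpf and 470, 731 and 508 CPM at 72 hpf, and its 72 hpf mean was 106% of its 36 hpf mean. It is a member because replicate 1 at 72 hpf was under 500 CPM. ENSDART00000014868.8 (1233 bases) entered by a still smaller margin, with 834, 802 and 576 CPM at 36 hpf and 498, 850 and 615 CPM at 72 hpf.

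ENSDART00000025940.9 (3681 bases) had 639 ± 84.6 and 579 ± 124 CPM, and ENSDART00000130104.3 (3548 bases) had 700 ± 111 and 578 ± 220 CPM (SD, n = 3). ENSDART00000004879.5 (2764 bases) had 276, 1098 and 504 CPM at 72 hpf around a mean close to its 36 hpf mean of 729 ± 173 CPM (SD, n = 3). ENSDART00000022060.7 (2701 bases) had 870, 872 and 1448 CPM and then 478, 1244 and 907 CPM. In these 6, the 72 hpf mean was from 82.4 to 106% of the 36 hpf mean, and calling them transcripts of the 36 hpf stage would go against their values.

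Membership near 500 CPM turned on small differences. The members with the lowest level in a 36 hpf library were ENSDART00000043002.5 at 501 CPM, ENSDART00000144100.2 at 502 CPM and ENSDART00000003939.6 at 506 CPM. Just outside were ENSDART00000169019.2 at 499 CPM, ENSDART00000014168.5 at 497 CPM and ENSDART00000004474.8 at 491 CPM. On the 72 hpf side, the members with the highest minimum were ENSDART00000014868.8 at 498 CPM, ENSDART00000124467.3 at 481 CPM and ENSDART00000022060.7 at 478 CPM. The transcripts kept out by the smallest margin there were ENSDART00000058779.5 at 505 CPM, ENSDART00000060310.6 at 516 CPM and ENSDART00000134542.2 at 555 CPM.

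Within 36 hpf most members varied little between libraries. The median coefficient of variation over the 3 libraries was 15.9%, with quartiles at 10.3 and 24.8%, and the highest library was under 1.5 times the lowest in 64 of the 98. The rule asks for 500 CPM in each of these libraries and so favours low variation. At 36 hpf the median coefficient was 13.2% for the 45 transcripts abundant throughout both stages, which had to meet the same minimum. It was 63.2% over all tested transcripts, most of which have lower counts. ENSDART00000122288.3 (1518 bases) varied least, with 680, 667 and 656 CPM, a coefficient of 1.74%. ENSDART00000046587.6 and ENSDART00000005021.5 followed at 3.44 and 3.60%.

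The most variable at 36 hpf were ENSDART00000159459.1 (3163 bases) at 43.8%, ENSDART00000178366.1 (10785 bases) at 43.7% and ENSDART00000029695.4 at 39.3%. The first had 1469, 658 and 818 CPM, and the second had 1636, 798 and 828 CPM, with replicate 1 the highest in both. Over all members, replicates 1, 2 and 3 at 36 hpf were the highest for 33, 34 and 31 members. They were the lowest for 44, 27 and 27 members, and for 8010, 4613 and 5088 of all tested transcripts. The number of transcripts with at least 10 counts was 15089, 21068 and 20355 in these 36 hpf libraries.

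At 72 hpf the same transcripts were far less even. Their median coefficient of variation was 77.8%, against 23.3% at 72 hpf for the 45 transcripts abundant throughout both stages. The 45 had to reach 500 CPM in every 72 hpf library, which favours low variation there, and members did not. The rules therefore bear on this contrast. Over all tested transcripts, most of which have lower counts, the median was 108%. The reverse set of 69 had a median of 38.3% at 36 hpf, the stage in which it was not chosen to be high. The difference between these medians was not tested.

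Replicate 2 at 72 hpf was the highest 72 hpf library for 61 of the 98 members (62.2%), replicate 1 for 18 and replicate 3 for 19. Among all tested transcripts replicate 3 led with 41.1%, against 28.8% for replicate 1 and 30.1% for replicate 2. Replicate 2 led among the 45 abundant throughout both stages, with 51.1%, and in the reverse set of 69 replicate 1 led with 42.0%, ahead of replicate 2 with 37.7%. Replicate 2 was over 2 times both other libraries in 32 members, replicate 1 in 3 and replicate 3 in 11, and over all tested transcripts the shares were 16.9, 15.7 and 29.1% for replicates 2, 1 and 3. It also reached 500 CPM for 23 members, against 10 in replicate 1 and 12 in replicate 3, and for 14 members it was alone in doing so. The median member stood at 10.2, 14.2 and 7.71% of its 36 hpf mean in replicates 1, 2 and 3. Replicate 2 was the shallowest library and had the fewest transcripts with 10 or more counts, and the part of either in this pattern was not tested. When the members were chosen again without replicate 2, the median 72 hpf level was 7.93% of the 36 hpf mean in place of 11.5%.

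**Figure D4:**
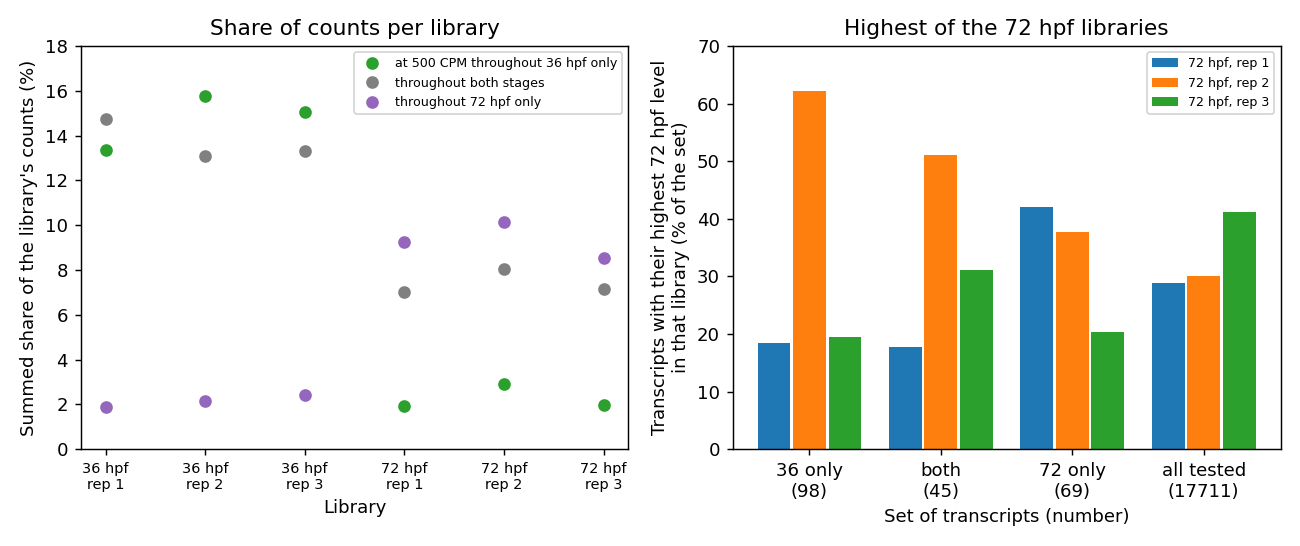
Left, summed share of each library's counts (%) for the 98 transcripts, the 45 abundant throughout both stages and the 69 abundant throughout 72 hpf but not 36 hpf, 1 point per library. Right, the percentage of each set whose highest 72 hpf level was in replicate 1, 2 or 3; replicate 2 leads among the 98, with 62.2%, while replicate 3 leads among all tested transcripts, with 41.1%.

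Some members went the opposite way, and these were named after their values were seen. In 7 members replicate 2 at 72 hpf was under 10% of both other libraries of that stage. ENSDART00000005021.5 (2684 bases) had 704, 746 and 699 CPM at 36 hpf and 192, 0 and 283 CPM at 72 hpf. ENSDART00000170582.1 (2659 bases), whose counts were whole in all 6 libraries, had 252, 1.54 and 235 CPM at 72 hpf, and ENSDART00000164663.1 (4970 bases) had 212, 1.75 and 114 CPM.

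The reverse, with replicate 2 over 10 times both others, was seen in 5 members, and its share over all tested transcripts was not computed. ENSDART00000136449.2 (2263 bases) had 1.16, 234 and 0.983 CPM at 72 hpf, and ENSDART00000043658.6 had 3.06, 386 and 14.6 CPM. In 9 members replicate 1 was the one under 10% of both others, and in 2 members replicate 3 was. Among all tested transcripts, 17.2, 22.7 and 3.23% had replicate 1, 2 or 3 under 10% of both others. Their levels are mostly much lower, with medians of 3.88, 2.02 and 14.8 CPM in replicates 1 to 3 at 72 hpf. A gap of this size can rest on few counts there, so these shares are not at like levels.

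Levels in a library that took no part in the choice were read by leaving out each library in turn and choosing again from the other 5. Without a 36 hpf library the rule gave 107 to 113 transcripts. Those that reached 500 CPM in the library left out are the 98 members by definition, and 9 to 15 did not reach it. In that library 85.0 to 87.6% of the chosen transcripts were above every 72 hpf library. Without a 72 hpf library it gave 93 or 94 transcripts, all of them members by the rule. In the library left out 95.7, 91.5 and 96.8% were below every 36 hpf library, for replicates 1, 2 and 3. The libraries of the other stage, with which each left-out library was compared, did take part in the choice, so these shares are a description.

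Over all tested transcripts the corresponding shares were 26.2 to 27.9% for the 36 hpf libraries and 43.1, 45.3 and 28.1% for the 72 hpf libraries. The tested transcripts are mostly at much lower levels, with a median of 2.02 to 14.8 CPM per library, and the chosen ones are high at 36 hpf by the rule, so the difference between the shares was not tested. In the left-out 72 hpf library the median level was 9.47, 13.9 and 7.23% of the 36 hpf mean for replicates 1, 2 and 3.

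**Figure D5:**
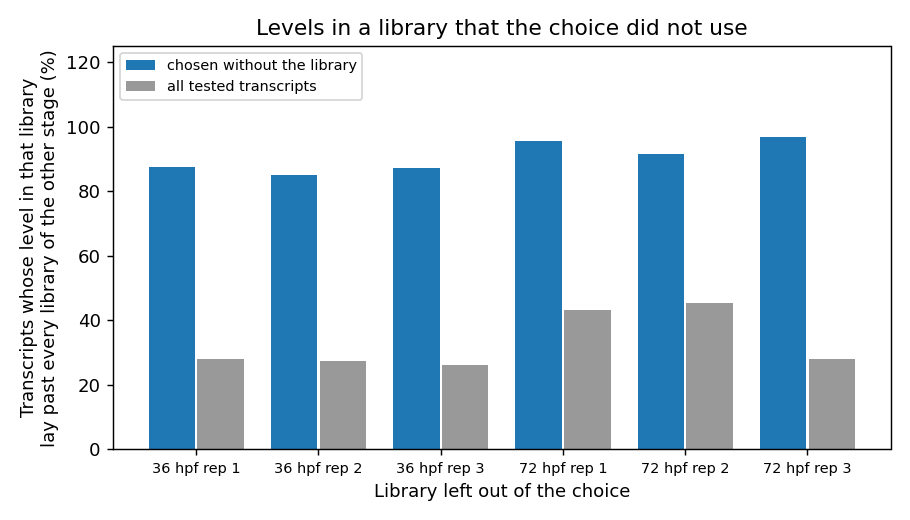
For each library, the percentage of transcripts chosen without it whose level in it lay past every library of the other stage (above for 36 hpf libraries, below for 72 hpf libraries), beside the same percentage over all tested transcripts. The chosen transcripts range from 85.0 to 96.8%, and all tested transcripts from 26.2 to 45.3%. The libraries of the other stage were used in the choice.

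Length and read sharing took no part in the rule. The median member was 2262 bases long, with quartiles at 1734 and 3118 bases and a range of 822 to 20569. All tested transcripts had a median of 2339 bases and quartiles of 1420 and 3864. The median was 2417 bases for the 45 abundant throughout both stages and 2618 bases for the reverse set. CPM values favour long transcripts, and how often short ones reach 500 CPM was not tested. Among the members 4 were under 1000 bases and 9 were over 5000, and these shares over all tested transcripts were not computed.

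A transcript with a whole estimated count in each of the 6 libraries, to within 1e-06, was taken to have reads that were not divided with other transcripts. This held for 26 of the 98 (26.5%) and for 20.7% of all tested transcripts. It includes ENSDART00000159326.1, which has over 100000 counts in 1 library, where decimals are not written. The 26 stood at a median of 12.1% of their 36 hpf mean at 72 hpf and the other 72 at 11.5%. Replicate 2 was the highest 72 hpf library for 18 of the 26 and 43 of the 72.

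By the median, the more abundant members had less left at 72 hpf in relative terms. Yet of the 12 members under 1% of their 36 hpf mean, 11 had a 36 hpf mean under 1000 CPM. The 39 members with a mean of 1000 CPM or more at 36 hpf stood at a median of 7.68% of it at 72 hpf, within a range of 0.484 to 82.4%. The 59 under 1000 CPM stood at 18.6%, within a wider range of 0.0551 to 106%. The rule bears on this, since a member near 500 CPM at 36 hpf enters with a 72 hpf level just under it, and no test was made.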

How the data were processed

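RNA of sorted trunk neural crest cells was sequenced from 3 samples at 36 hpf and 3 at 72 hpf, with libraries made with the Smart-seq v4 kit per the labels' protocols, which mention no molecular identifiers and no strand. Each deposited file gives estimated counts per Ensembl transcript, per the file headers, in which reads that fit more than 1 transcript are split. The deposited TPM values are abundances that the authors' program corrected for effective length. Transcript lengths come from the same files. Per the submitters' processing notes, the tools were RSEM 1.2.15, Bowtie2 2.1.0, Trimmomatic and FastQC on build danRer10. The column names are not those of RSEM, and the sources used here do not say which program wrote the values.

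CPM were computed from the estimated counts and each library's total. For the stage comparison estimated counts were rounded and tested in edgeR 4.0.16 (R 4.3.3) with TMM factors, filterByExpr by stage, a quasi-likelihood test with stage as the only term and Benjamini-Hochberg adjustment over 17711 transcripts. The fits were also run on simulated counts, the outcome is not given here, and no value in the text rests on it. DESeq2 1.42.0 and limma-voom (limma 3.58.1), other scalings, filters and rules, a replicate block and leaving out each library were alternatives. Figures were drawn with matplotlib 3.10.9. The members, lists and tests were chosen with earlier results of these data known. Named transcripts are, among members, the 10 of highest mean CPM at 36 hpf, the 8 largest and 6 smallest differences, the 3 most and 3 least variable at 36 hpf, and the 3 nearest each side of each limit. Lists of gene symbols fixed at the start were not used, because 0 of the reference tables hold Ensembl transcript identifiers. Values rest on 7123251 to 18322110 counts per library, and counting limits cover counting error only.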

Additional observations from a re-analysis of the deposited data

How the results depend on the processing

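Against 98 members with a median of 11.5% of the 36 hpf level, shares of 14.7 and 2.27% at 36 and 72 hpf and a median length of 2262 bases, a minimum of 200 CPM gave 309 transcripts, 25.5%, 20.6 and 4.17%, and 2437 bases. Of those 309, 79 were members. A minimum of 1000 CPM gave 37 transcripts, 30 of them members, with shares of 17.8 and 1.61%, and 2477 bases. Requiring under 500 CPM in all 72 hpf libraries gave 66, 7.48%, 7.93 and 0.703%, and 2073 bases. Choosing by TPM gave a median of 15.9%, a 36 hpf share of 15.98% of TPM and 1713 bases. TMM-scaled totals gave 103 transcripts, 97 of them members, with a median length of 2314 bases. Leaving the most abundant transcript out of the totals gave 107, 97 of them members, with a 36 hpf share of 16.5% and 2314 bases. Leaving out 1 library gave 93 to 113 transcripts, a median of 7.93 to 13.4% of the 36 hpf level, and shares of 13.9 to 16.5% at 36 hpf and 1.63 to 2.69% at 72 hpf. The lowest median and 72 hpf share came without replicate 2 at 72 hpf. With a tolerance of 1e-03 the number with whole counts was again 26.

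Of the tests across all transcripts, edgeR called 18 members lower and 72 of 17711 transcripts in either direction, 35 of them lower. In the same order, the counts were 34, 914 of 12891 and 679 with the stricter filter (1 CPM throughout a stage, mean count of 10). They were 40, 1581 and 1083 by DESeq2. At an adjusted p under 0.01 edgeR called 8 members lower and 14 transcripts in either direction. The total called in either direction was 23 with the replicate block, 174 with no filter, of 34346 tested, and 1033 by limma-voom. Those called lower were 16, 92 and 769, and the members called lower were 14, 27 and 26. Leaving out 1 library gave 0 to 31 members lower and 0 to 89 transcripts in either direction, 0 to 63 of them lower. Without replicate 3 at 72 hpf edgeR called 0, though 4074 transcripts, 64 of them members, had an unadjusted p under 0.05. Why the fits differ was not tested. Same-numbered libraries correlated at 0.00905, -0.017 and 0.0403 in their deviations from the stage mean, so equal numbers were not read as pairs; 12 of the 18 members kept their call under the block. With relative log expression factors the median log2 fold change was 0.076 in place of -0.07 over all tested transcripts, and -2.93 in place of -3.16 over members. Over the named transcripts and these fits, 461 results kept direction and side of the threshold, 38 gained a call, 38 lost it and 9 turned sign: the log2 fold change of ENSDART00000016214.8 was 0.031, and -0.031 with no filter, -0.060 by limma-voom and -0.21 to 0.11 when 1 library was left out. That of ENSDART00000025940.9 was -0.19, and 0.0098 with relative log expression factors and 0.0097 by DESeq2. Over the fits that left out 1 library, that of ENSDART00000004879.5 ranged from -0.997 to 0.031, and that of the non-member ENSDART00000060310.6 from -0.32 to 0.012.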
